A study of Mus musculus with 24 samples.

Results

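The 45 genes described here encode the machinery that copies DNA and restores chromatin behind the replication fork. They were chosen by name, as a list of S-phase, replication fork, nucleotide supply and chromatin maintenance genes, and each was found by its symbol among the 43430 gene rows of a table of RNA-seq counts. The table held 24 libraries of alveolar macrophages, the resident phagocytes of the airspaces, sorted from C57BL/6J mouse lungs, with 4 libraries in each of 6 groups. Siglec F-high cells came from naive young and naive old mice and from young and old mice given asbestos, and Siglec F-low cells from the asbestos mice of both ages. By the sample labels the young mice were 8 to 12 weeks old and the old mice more than 18 months, and by the series text the asbestos groups were taken 28 days after asbestos, an inhaled mineral fibre used to cause lung fibrosis in mice. The series text names tissue-resident and monocyte-derived macrophages, while the labels name the cells only by Siglec F, a lectin of alveolar macrophages. No Siglec F-low cells of naive mice and no vehicle group were among these libraries. No label says which libraries came from 1 animal, so p-values measure the spread between these samples, which may in part be technical.

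Replication is prepared in G1, when the origin recognition complex, Cdc6 and Cdt1 load the Mcm2 to Mcm7 helicase onto origins, and geminin (Gmnn) blocks Cdt1 once S phase has begun. Cdc45, the GINS complex and Mcm10 turn the loaded helicase into an active one, polymerases alpha, delta and epsilon copy the strands with the clamp Pcna, and Fen1, Dna2 and Lig1 finish the lagging strand. E2F transcription factors drive most of these genes in dividing cells, and resident alveolar macrophages are known to maintain themselves by slow division in the lung.

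Nearly all of the 45 genes had lower values in old than in young mice. In naive Siglec F-high cells 42 of 45 had a negative log2 change in old against young, with a median of -0.26, whereas the median of all 13467 genes tested was -0.01. In Siglec F-high cells after asbestos 40 of 45 were negative, with a median of -0.34 beside 0.04 for all genes, and in Siglec F-low cells all 45 were, with a median of -0.44 beside -0.01. The 3 age comparisons share no library, although the labels do not say whether both sorts came from the same mice. The sign was negative in all 3 for 37 genes and in 2 of 3 for the other 8. In bulk RNA, fewer dividing cells and less of these RNAs per cell cannot be told apart.

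Few single genes passed the test with all libraries. A gene is described as called where edgeR's quasi-likelihood test, adjusted over all genes, gave it an adjusted p under 0.05. The test was fitted to 24 libraries and again to 22, without a poor library of each asbestos Siglec F-high group. In naive cells edgeR called 3 of the 45 lower with 24 libraries, Rrm2, E2f8 and Ezh2, where 0.349% of all genes tested were called lower, and none higher, where 1.68% were. With 22 libraries it called 8 lower, where the share of all genes was 2.91%, and 1 higher, Fen1, where it was 5.11%. After asbestos, the Siglec F-high comparison called 7 lower with 24 libraries (1.87% of all genes) and 14 with 22 (2.47%), of which only Dna2, Rrm2 and Ezh2 were in both sets. The Siglec F-low comparison called 3 lower with 24 libraries (0.423%) and 24 with 22 (3.41%), the 3 among them. Neither asbestos age comparison called any of the 45 higher, while 2.89% and 4.84% of all genes were called higher with 24 and 22 libraries in Siglec F-high cells, and 0.869% and 3.8% in Siglec F-low cells. Rrm2 was called lower in all 3 age comparisons in both fits. With 22 libraries Mcm2, Mcm7, E2f8 and Ezh2 were as well, although the naive call of Mcm7 and the Siglec F-high asbestos call of E2f8 were lost in 14 and 15 of the 22 fits that left out 1 of 22 libraries.

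The counts of calls moved with single libraries. With 24 libraries the naive count of 3 was 1 when old naive replicate 2 was left out and 6 when the poor young library was. The Siglec F-high asbestos count of 7 was 11, 14 and 12 without young replicates 2, 3 and 4, 2, 2 and 1 without old replicates 1, 2 and 4, and 4 without old Siglec F-low replicate 1 or 4. The Siglec F-low count of 3 was 15 without young Siglec F-high replicate 3, 1 without old Siglec F-low replicate 4, and 0 without young Siglec F-low replicate 1 or old Siglec F-low replicate 1 or 2. From 22 libraries the naive count of 9 was 5 without old naive replicate 2, the Siglec F-high count of 14 was 5 to 7 without each of the 6 libraries compared, and the Siglec F-low count of 24 was 13 without young replicate 1 and 15 without old replicate 1. Of 51 calls with 22 libraries of the genes whose values are given per library, 27 were kept in each fit that left out 1 of 22 and 20 were lost in 1 to 7 of them. The other 4, naive Mcm7, Siglec F-high asbestos Mcm3 and E2f8, and Siglec F-low Brca1, were lost in 13 to 15. Fitted to the 8 Siglec F-high asbestos libraries alone, edgeR called none of the 45. At an unadjusted p under 0.05 it had 11, without the share of all genes to set beside them. Ezh2 then had an adjusted p of 0.193, and Dna2, Rrm2, Chaf1a and Mcm4 of 0.618 to 0.636. With no filter on low counts only Ezh2 was called there, and Dna2, Rrm2, Chaf1a and Mcm4 had adjusted p of 0.0571 to 0.102. The Siglec F-low call of Mcm4 was lost with no filter (0.261) and with DESeq2's size factors in edgeR (0.0658).

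**Figure D1:**
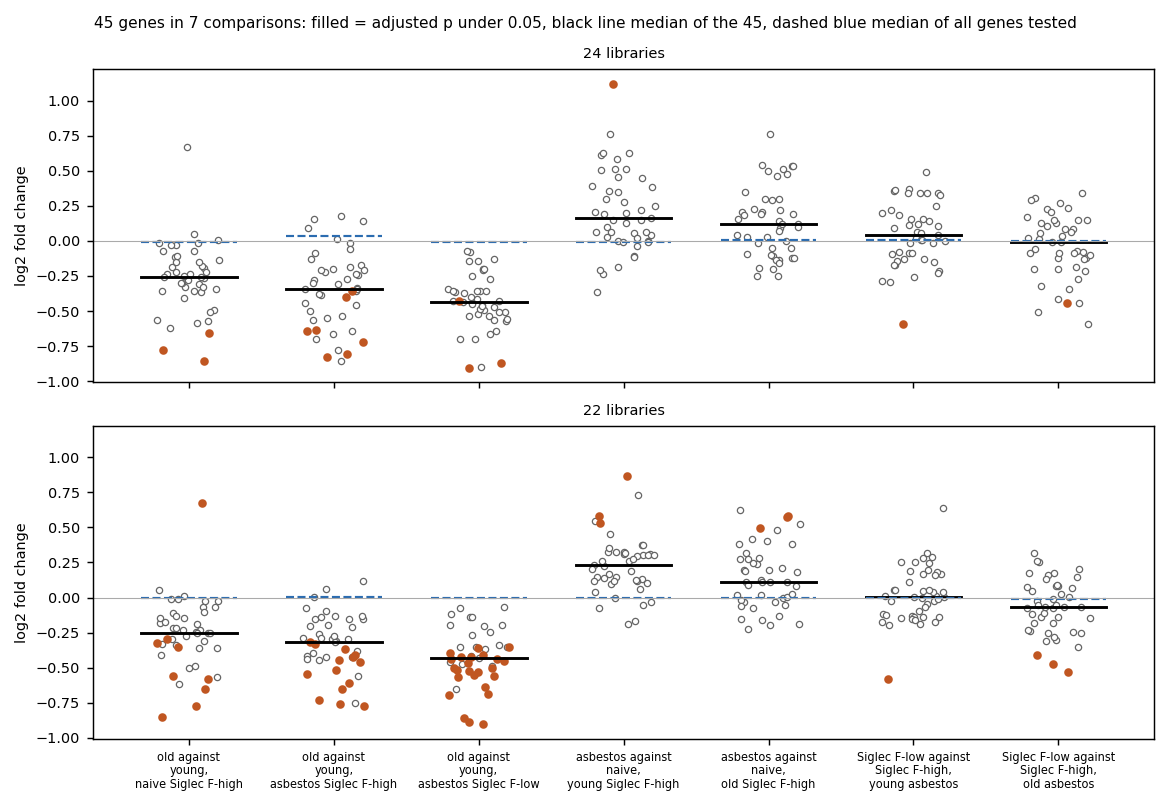
Log2 fold changes of the 45 genes in the 7 comparisons of 2 groups, 1 point per gene, with 24 libraries and with 22; filled points were called, the black line is the median of the 45 and the dashed line that of all genes tested. The 3 age comparisons lie mostly below 0 (42, 40 and 45 of 45 genes with 24 libraries), the asbestos comparisons mostly above it and the comparisons of sorts around it.

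Libraries were also compared by overlap. In naive cells 12 of the 45 genes had every old library below every young one, where 5% of all genes did. In Siglec F-low cells this held for 24 of 45, beside 6.56% of all genes. In Siglec F-high cells after asbestos it held for 11 of 45 with 8 libraries (3.78% of all genes) and for 27 of 45 with 6 (13.3%). The sum of the 45 genes was 1419.7, 1236, 1207 and 1175 CPM (counts divided by the TMM-adjusted library total) in young naive replicates 1 to 4 and 1104, 1078, 1053 and 1098 in old naive ones. After asbestos it was 1575, 1392, 1208 and 1432 in young and 1171, 1198, 1000.4 and 1173 in old Siglec F-high cells. Siglec F-low cells summed to 1598, 1421, 1378 and 1399.6 in young and 1027, 1089.9, 1156 and 1119 in old mice. Every old library was thus below every young library of its own sort and exposure, and replicate 1 was the highest of its group in each of the 3 young groups.

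**Figure D2:**
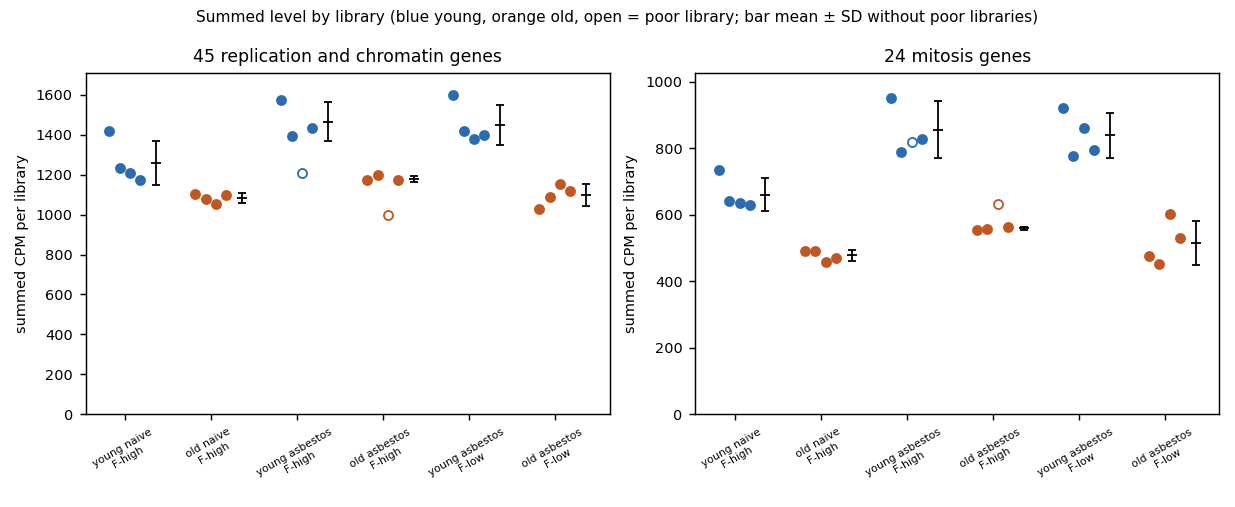
CPM summed over the 45 replication genes and over 24 mitosis genes in each library, by group, with the mean ± SD of each group without the poor libraries as bars and the poor libraries as open symbols. The old groups sit below the young ones, at 1027 to 1198 CPM against 1175 to 1598 CPM for the replication genes when the poor libraries are left out.

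Both poor libraries carry the replicate number 3 of an asbestos Siglec F-high group. The old one held only 3894699 counts, 71.6% of them on rRNA-related genes, and 14 of the 45 genes had fewer than 10 counts in it. The young one held 11889517 counts, spread over 12528 genes. The other 22 libraries held 13423080 to 18124526 counts on 17069 to 18820 genes, with at most 0.765% rRNA-related. All 45 genes passed the filter on low counts in both fits, and none was at 0 in any library. Single values of the poor libraries departed widely from those of their groups. For Pola2 the standard error of the naive age change was 0.29 with them and 0.07 without them, although neither is a naive library. In all lists of values below, the third value of an asbestos Siglec F-high group is the poor library.

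**Figure D3:**
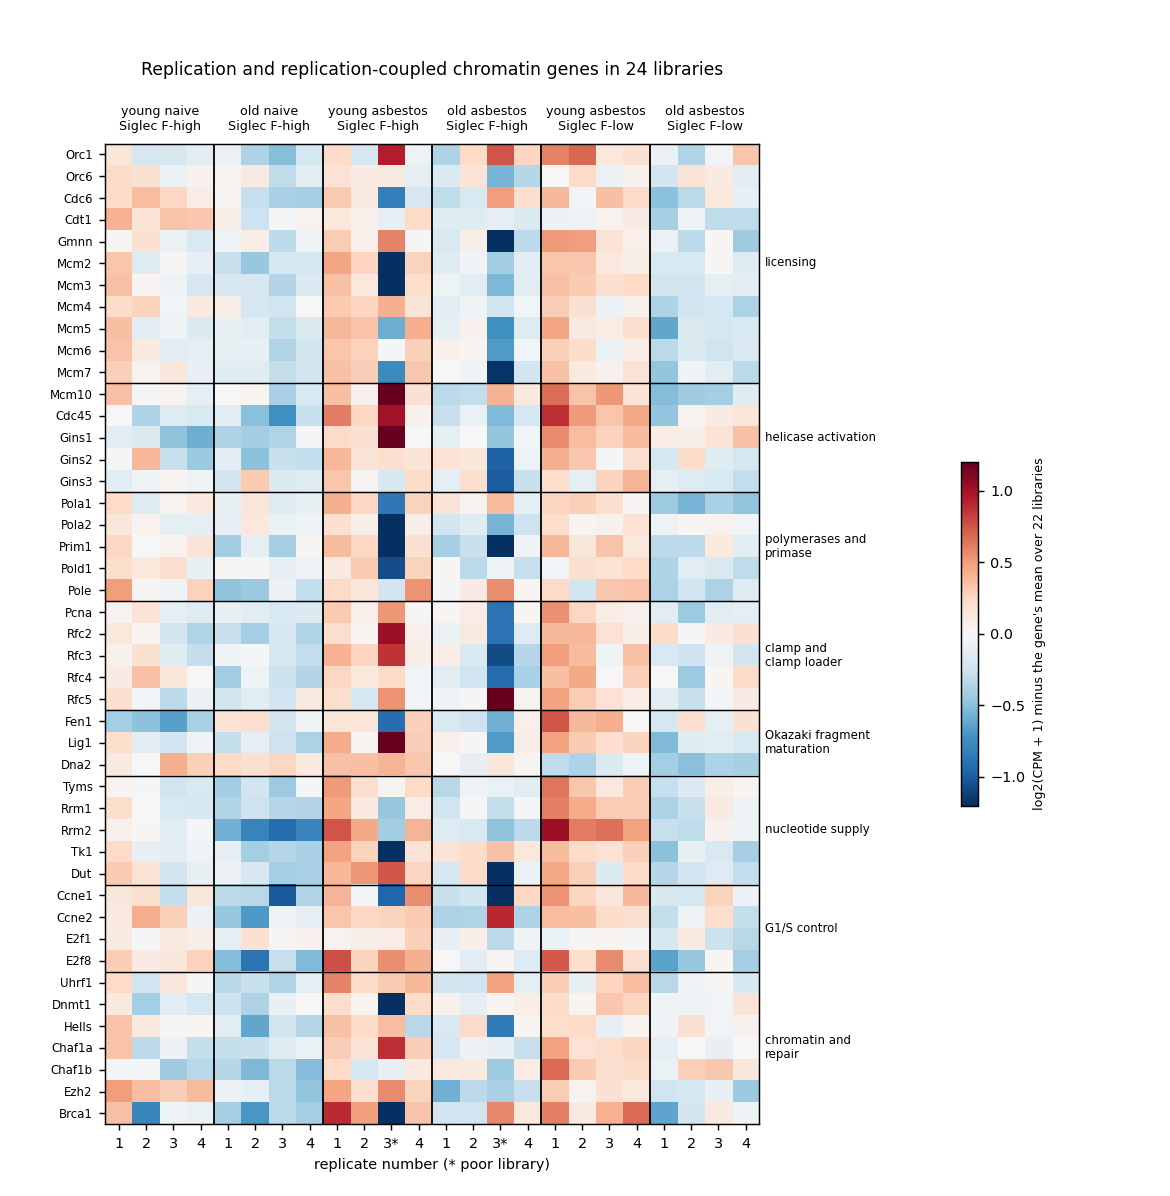
Log2(CPM + 1) of each of the 45 genes, centred on its mean over the 22 other libraries, for all 24 libraries in their 6 groups, with genes ordered by role. Old libraries are mostly below the mean and young asbestos libraries above it, and the poor libraries show scattered extremes in both directions.

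RefSeq promoter windows of 300 bases, 250 before and 50 after the transcription start on GRCm38.p6, were given for 38 of the 45 genes. These 38 genes had 45 windows, and a gene was counted where any of its windows held the letters. RefSeq starts can differ from those of GENCODE M21, used for the gene positions below, as for Ezh2 and Mcm5. The E2F letters TTTCCCGC, TTTCGCGC, TTTGGCGC or TTTGCCGC on either strand were found in 16 of these 38 genes (42.11%), and in 2.605% of the 27025 genes with a window. CCAAT, the letters bound by NF-Y, was found in 57.89% of the 38 and in 41.06% of all genes, and TTTGAA, the cell cycle homology region of mitotic promoters, in 15.79% and 20.23%. Matches of different searches, or of both strands, can share letters, as an E2F and a CCAAT match of Mcm7 do. The 16 genes were Cdc6, Cdt1, Dnmt1, Ezh2, Gins3, Hells, Lig1, Mcm3, Mcm5, Mcm6, Mcm7, Orc1, Pola1, Pold1, Rfc3 and Uhrf1. Shown first are 3 helicase subunits with more than 1 match and Ezh2, then Rrm2 and E2f8, which were lower with age but hold none of the E2F letters. A match is a description of the letters and not evidence of a bound factor. Each window runs 5′ to 3′ along its gene's strand, with E2F letters in capitals.
Mcm6 lies on the minus strand at chr1:128359656-128359955, with matches that begin 110, 106 and 47 bases before the start, the first overlapping the next.
Mcm6: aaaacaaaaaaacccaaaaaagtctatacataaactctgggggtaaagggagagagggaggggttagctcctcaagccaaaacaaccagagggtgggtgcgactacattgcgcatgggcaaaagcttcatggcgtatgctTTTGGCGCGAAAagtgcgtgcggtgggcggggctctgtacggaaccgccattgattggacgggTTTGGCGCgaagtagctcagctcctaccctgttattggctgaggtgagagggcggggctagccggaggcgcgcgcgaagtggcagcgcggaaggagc
Mcm5 lies on the plus strand at chr8:75109259-75109558, with overlapping matches that begin 153 and 149 bases before the start.
Mcm5: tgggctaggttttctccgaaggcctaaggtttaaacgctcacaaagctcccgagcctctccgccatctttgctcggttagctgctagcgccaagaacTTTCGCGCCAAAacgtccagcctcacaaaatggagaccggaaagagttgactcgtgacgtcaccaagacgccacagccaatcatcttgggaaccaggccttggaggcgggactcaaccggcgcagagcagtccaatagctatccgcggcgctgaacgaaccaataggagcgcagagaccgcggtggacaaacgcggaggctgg
Mcm3 lies on the minus strand at chr1:20820263-20820562, with matches at positions 20 and 39 of the transcript.
Mcm3: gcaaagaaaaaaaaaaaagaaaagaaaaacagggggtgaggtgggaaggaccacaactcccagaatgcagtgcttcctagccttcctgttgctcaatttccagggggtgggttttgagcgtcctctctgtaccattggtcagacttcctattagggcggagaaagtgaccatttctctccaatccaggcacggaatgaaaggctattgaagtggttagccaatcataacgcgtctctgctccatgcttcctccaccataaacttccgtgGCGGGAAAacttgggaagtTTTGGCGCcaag
Ezh2 lies on the minus strand at chr6:47594981-47595280, with 1 match at position 4 of the transcript.
Ezh2: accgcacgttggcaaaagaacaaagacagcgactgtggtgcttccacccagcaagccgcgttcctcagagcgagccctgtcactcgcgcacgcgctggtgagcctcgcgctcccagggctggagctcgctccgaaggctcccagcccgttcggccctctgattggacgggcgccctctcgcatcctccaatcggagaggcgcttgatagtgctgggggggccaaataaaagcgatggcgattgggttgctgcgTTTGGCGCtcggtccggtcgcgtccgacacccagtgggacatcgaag
Rrm2 lies on the plus strand at chr12:24708004-24708303.
Rrm2: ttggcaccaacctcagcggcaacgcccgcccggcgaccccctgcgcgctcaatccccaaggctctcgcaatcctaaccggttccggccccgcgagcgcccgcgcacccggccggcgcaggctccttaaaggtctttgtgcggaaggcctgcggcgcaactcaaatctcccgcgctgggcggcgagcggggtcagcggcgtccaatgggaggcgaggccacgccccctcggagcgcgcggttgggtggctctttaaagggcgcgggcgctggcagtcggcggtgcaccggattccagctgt
E2f8 lies on the minus strand at chr7:48881547-48881846.
E2f8: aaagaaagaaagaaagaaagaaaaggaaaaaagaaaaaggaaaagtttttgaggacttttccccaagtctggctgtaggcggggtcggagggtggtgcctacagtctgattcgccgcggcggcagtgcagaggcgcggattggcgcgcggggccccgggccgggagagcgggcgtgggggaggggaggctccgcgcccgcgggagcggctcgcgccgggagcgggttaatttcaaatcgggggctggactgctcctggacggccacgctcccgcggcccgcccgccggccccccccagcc

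Per kilobase of exon, the mean level over the 6 groups without the poor libraries was highest for Pcna, at 48.9 CPM per kb, and lowest for Orc1, at 0.458 CPM per kb. Mcm3 (17.5 CPM per kb) and Dnmt1 (17.4 CPM per kb) followed Pcna, and the origin loader Cdc6 (1.18 CPM per kb) and the leading-strand polymerase Pole (1.1003 CPM per kb) were near the bottom. The levels below are in CPM and are compared between libraries, not between genes. Positions are from GENCODE M21 on GRCm38. Log2 fold changes are given ± standard error.

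The 11 licensing genes were all negative with age in naive cells and in Siglec F-low cells, and 10 of 11 were in Siglec F-high cells after asbestos. With 22 libraries 3, 4 and 7 of them were called lower in naive, asbestos Siglec F-high and asbestos Siglec F-low cells, and with 24 libraries 0, 1 and 1. Of all genes tested, 2.91%, 2.47% and 3.41% were called lower with 22 libraries and 0.349%, 1.87% and 0.423% with 24. Mcm2 (ENSMUSG00000002870, chromosome 6, 88883474 to 88898780, minus strand), a helicase subunit that also carries histones, stood at 50.3, 35.6, 40.2 and 36.9 CPM in young and 32.5, 28.7, 34.6 and 34.3 CPM in old naive cells. Mcm2 after asbestos stood at 55.4, 47.7, 11.3 and 48.2 CPM in young and 35.9, 38.4, 29.4 and 36.1 CPM in old Siglec F-high cells, and at 50.2, 49.96, 43.5 and 42.1 CPM in young and 34.8, 34.8, 40.2 and 35.5 CPM in old Siglec F-low cells. Old libraries were below all young ones in naive and Siglec F-low cells, and in Siglec F-high cells once the poor libraries were left out. The naive change was -0.32 ± 0.10 with 22 libraries (edgeR adjusted p = 0.0411) and -0.33 ± 0.27 with 24 (adjusted p = 1). For Siglec F-high cells after asbestos it was -0.44 ± 0.11 with 22 libraries (edgeR adjusted p = 0.0162) and -0.20 ± 0.27 with 24 (adjusted p = 0.657), and in Siglec F-low cells -0.35 ± 0.10 with 22 libraries (edgeR adjusted p = 0.0293) and -0.35 ± 0.27 with 24 (adjusted p = 0.994).

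Mcm3 (ENSMUSG00000041859, chromosome 1, 20802968 to 20820312, minus strand) stood at 83.02, 65.6, 62.3 and 56.4 CPM in young and 56.3, 55.95, 50.3 and 57.7 CPM in old naive cells. Mcm3 after asbestos stood at 82.95, 70.6, 18.95 and 75.2 CPM in young and 61.8, 59.3, 44.1 and 59.03 CPM in old Siglec F-high cells, and at 82.9, 80.6, 74.4 and 76.7 CPM in young and 55.4, 54.8, 59.8 and 59.2 CPM in old Siglec F-low cells. The old values lay at 50.3 to 61.8 CPM outside the poor library, and young Siglec F-low values at 74.4 to 82.9 CPM. The Siglec F-low age change was -0.45 ± 0.09 with 22 libraries (edgeR adjusted p = 0.00203) and -0.46 ± 0.25 with 24 (adjusted p = 0.766). In Siglec F-high cells after asbestos Mcm3 changed by -0.33 ± 0.10 with 22 libraries (edgeR adjusted p = 0.0446) and -0.13 ± 0.26 with 24 (adjusted p = 0.7796). This Siglec F-high call was lost in 14 of the 22 fits that left out 1 of 22 libraries (adjusted p 0.05001 to 0.179).

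Mcm4 (ENSMUSG00000022673, chromosome 16, 15623897 to 15637400, minus strand) stood at 58.9, 61.1, 49.3 and 54.96 CPM in young and 52.98, 43.8, 42.8 and 50.6 CPM in old naive cells. Mcm4 after asbestos stood at 62.9, 60.5, 68.4 and 56.4 CPM in young and 46.1, 48.6, 42.5 and 49.3 CPM in old Siglec F-high cells, and at 62.3, 57.3, 48.1 and 52.2 CPM in young and 38.8, 42.6, 43.5 and 38.6 CPM in old Siglec F-low cells. Among the 6 genes of the helicase ring Mcm4 alone was called with 24 libraries, in both asbestos age comparisons, where old and young libraries did not overlap. The change was -0.40 ± 0.11 with 24 libraries (edgeR adjusted p = 0.0333) and -0.31 ± 0.10 with 22 (adjusted p = 0.061995) in Siglec F-high cells. In Siglec F-low cells it was -0.43 ± 0.11 with 24 libraries (edgeR adjusted p = 0.0423) and -0.42 ± 0.09 with 22 (adjusted p = 0.00363). The Siglec F-high call was lost with 22 libraries, and of the fits that left out 1 of 24 libraries 4 lost it (adjusted p 0.0570 to 0.0886), those without an old asbestos Siglec F-high replicate. The Siglec F-low call was lost in 21 of the 24 such fits (adjusted p 0.0529 to 0.225) and in none of those that left out 1 of 22.

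Mcm5 (ENSMUSG00000005410, chromosome 8, 75109569 to 75128439, plus strand) stood at 46.6, 32.97, 34.5 and 31.8 CPM in young and 33.9, 32.6, 29.3 and 32.1 CPM in old naive cells. Mcm5 after asbestos stood at 47.7, 45.8, 23.7 and 49.02 CPM in young and 33.3, 37.4, 21.2 and 32.2 CPM in old Siglec F-high cells, and at 50.4, 38.9, 38.3 and 41.4 CPM in young and 23.1, 31.8, 31.1 and 31.7 CPM in old Siglec F-low cells. Old naive values lay within the young range except in 1 library, while the asbestos groups separated without the poor libraries. The age change was -0.46 ± 0.13 with 22 libraries (edgeR adjusted p = 0.0377) and -0.38 ± 0.19 with 24 (adjusted p = 0.2104) in Siglec F-high cells. In Siglec F-low cells it was -0.52 ± 0.12 with 22 libraries (edgeR adjusted p = 0.00719) and -0.52 ± 0.19 with 24 (adjusted p = 0.297).

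Mcm6 (ENSMUSG00000026355, chromosome 1, 128331590 to 128359664, minus strand) stood at 75.5, 64.1, 54.4 and 55.2 CPM in young and 55.7, 55.6, 46.02 and 50.7 CPM in old naive cells. Mcm6 after asbestos stood at 75.3, 72.1, 58.8 and 72.7 CPM in young and 61.4, 60.7, 36.8 and 58.2 CPM in old Siglec F-high cells, and at 72.4, 69.5, 56.1 and 62.9 CPM in young and 47.4, 52.6, 50.3 and 52.5 CPM in old Siglec F-low cells. The Siglec F-low sorts did not overlap by age, and the change there was -0.36 ± 0.09 with 22 libraries (edgeR adjusted p = 0.02004) and -0.36 ± 0.14 with 24 (adjusted p = 0.348). Mcm7 (ENSMUSG00000029730, chromosome 5, 138164583 to 138172422, minus strand), the last subunit of the hexamer, stood at 62.5, 52.6, 56.1 and 47.8 CPM in young and 46.3, 46.02, 41.8 and 43.7 CPM in old naive cells. Mcm7 after asbestos stood at 65.4, 62.9, 29.7 and 64.4 CPM in young and 50.99, 49.4, 22.1 and 43.4 CPM in old Siglec F-high cells, and at 65.5, 55.5, 53.01 and 57.9 CPM in young and 36.7, 49.7, 46.8 and 40.8 CPM in old Siglec F-low cells. Every old Mcm7 value lay below every young one of the same group pair, apart from the poor libraries. Its age changes with 22 libraries were -0.30 ± 0.09 in naive, -0.41 ± 0.11 in asbestos Siglec F-high and -0.41 ± 0.09 in asbestos Siglec F-low cells (edgeR adjusted p = 0.0472, 0.0179 and 0.00711). With 24 libraries the same values were -0.30 ± 0.21, -0.38 ± 0.21 and -0.41 ± 0.21 (adjusted p = 0.933, 0.252 and 0.645). The naive Mcm7 call was lost in 14 of the 22 fits that left out 1 of 22 libraries (adjusted p 0.0502 to 0.155). Mir25 and Mir93, microRNAs encoded within Mcm7, overlap 2% of its exons each, and opposite-strand exons of Ap4m1 and Cops6 overlap 7% and 1%.

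Cdt1 (ENSMUSG00000006585, chromosome 8, 122568015 to 122573554, plus strand), which brings the helicase to origins, stood at 44.7, 37.4, 42.3 and 41.9 CPM in young and 35.1, 27.8, 32.9 and 34.3 CPM in old naive cells. Cdt1 after asbestos stood at 36.2, 34.6, 31.04 and 39.2 CPM in young and 29.8, 29.9, 31.03 and 29.4 CPM in old Siglec F-high cells, and at 31.6, 31.7, 34.1 and 35.7 CPM in young and 25.03, 31.7, 26.8 and 26.7 CPM in old Siglec F-low cells. The naive groups did not overlap, and the change was -0.35 ± 0.08 with 22 libraries (edgeR adjusted p = 0.00823) and -0.35 ± 0.10 with 24 (adjusted p = 0.0808). Cdc6 (ENSMUSG00000017499, chromosome 11, 98907801 to 98923940, plus strand), its partner in loading, stood at 7.26, 8.08, 7.39 and 6.504 CPM in young and 6.18, 4.83, 4.36 and 4.32 CPM in old naive cells. Cdc6 after asbestos stood at 7.77, 6.61, 2.997 and 5.11 CPM in young and 4.701, 5.21, 8.98 and 7.06 CPM in old Siglec F-high cells, and at 8.23, 5.87, 8.03 and 7.25 CPM in young and 3.998, 4.63, 6.69 and 5.59 CPM in old Siglec F-low cells. Old naive values were all below young ones, but Cdc6 was not called in any comparison (naive change -0.56 ± 0.18 with 22 libraries (edgeR adjusted p = 0.0519) and -0.57 ± 0.24 with 24 (adjusted p = 0.415)). Gmnn (ENSMUSG00000006715, chromosome 13, 24751845 to 24761923, minus strand), the inhibitor of Cdt1, stood at 22.9, 25.9, 21.4 and 19.9 CPM in young and 21.9, 23.9, 18.1 and 21.8 CPM in old naive cells. Gmnn after asbestos stood at 28.2, 23.6, 34.8 and 22.8 CPM in young and 19.8, 23.8, 8.17 and 18.1 CPM in old Siglec F-high cells, and at 32.6, 32.4, 25.5 and 23.7 CPM in young and 21.4, 18.1, 22.9 and 16.6 CPM in old Siglec F-low cells. Its Siglec F-low groups did not overlap, with an age change of -0.53 ± 0.13 with 22 libraries (edgeR adjusted p = 0.0132) and -0.53 ± 0.19 with 24 (adjusted p = 0.289). Orc1 and Orc6, subunits of the origin recognition complex, ranged from 0.774 to 3.87 CPM and from 6.53 to 12.04 CPM and were not called in any comparison.

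**Figure D4:**
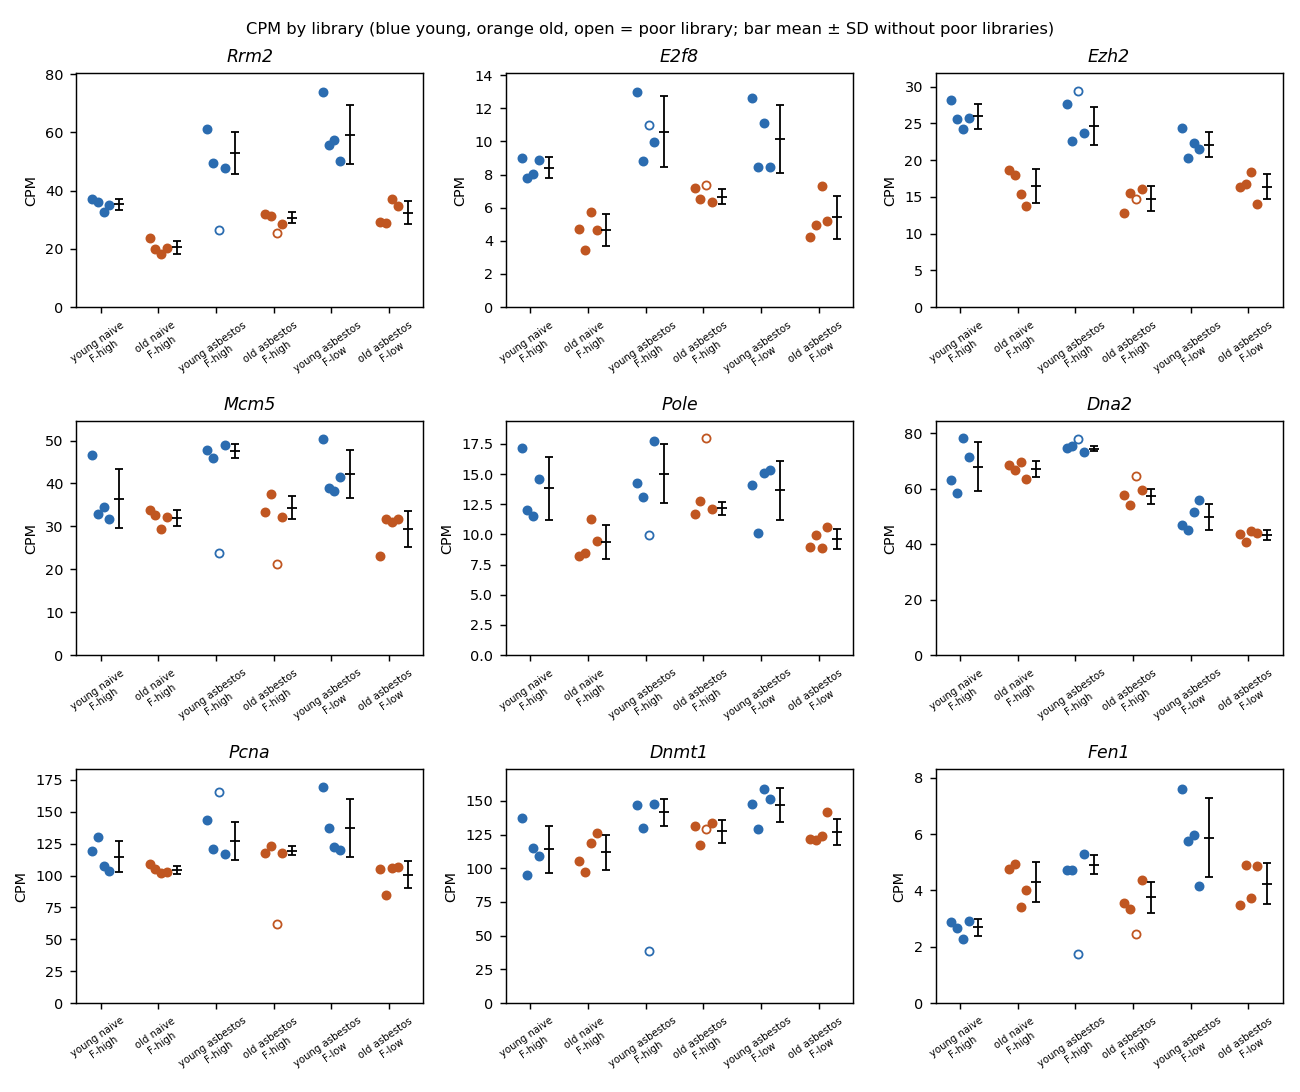
CPM of selected genes in each library by group, with the mean ± SD of each group without the poor libraries as bars and the poor libraries as open symbols; each panel's axis starts at 0. E2f8 and Ezh2 are lower in every old library than in the young libraries of its pair, and Dna2 is lower in both Siglec F-low groups.

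The 5 helicase activation genes were Cdc45, Mcm10 and 3 GINS subunits. With 22 libraries none was called with age in Siglec F-high cells, naive or after asbestos. Cdc45 and Mcm10 were called lower in Siglec F-low cells, where 3.41% of all genes were. Mcm10 (ENSMUSG00000026669, chromosome 2, 4989714 to 5012791, minus strand) stood at 10.9, 8.21, 8.6004 and 7.64 CPM in young and 8.28, 8.47, 6.13 and 7.22 CPM in old naive cells. Mcm10 after asbestos stood at 10.99, 8.65, 25.2 and 9.61 CPM in young and 6.45, 6.62, 11.4 and 9.098 CPM in old Siglec F-high cells, and at 13.8, 10.8, 12.4 and 9.36 CPM in young and 5.504, 5.93, 6.02 and 7.42 CPM in old Siglec F-low cells. The poor young library was the highest of all 24, the other values of its group lying at 8.65 to 10.99 CPM, and Siglec F-low values did not overlap by age. The Siglec F-low change of Mcm10 was -0.89 ± 0.16 with 22 libraries (edgeR adjusted p = 8.16e-04) and -0.90 ± 0.26 with 24 (adjusted p = 0.123).

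Gins1 (ENSMUSG00000027454, chromosome 2, 150905400 to 150931280, plus strand), a GINS subunit, stood at 6.49, 6.301, 4.86 and 4.44 CPM in young and 5.303, 5.11, 5.36 and 7.04 CPM in old naive cells. Gins1 after asbestos stood at 8.57, 8.25, 24.7 and 7.11 CPM in young and 6.51, 7.15, 4.9000 and 6.99 CPM in old Siglec F-high cells, and at 11.1, 9.52, 8.85 and 9.65 CPM in young and 7.71, 7.56, 8.17 and 9.42 CPM in old Siglec F-low cells. All young asbestos Siglec F-high values lay above the naive ones, the poor library far above the rest. Gins1 was the only 1 of the 45 called in the young asbestos comparison in both fits. The change was 1.12 ± 0.28 with 24 libraries (edgeR adjusted p = 0.0384) and 0.53 ± 0.15 with 22 (adjusted p = 0.0373). The call was lost in 14 of 24 fits that left out 1 of 24 libraries (adjusted p 0.05004 to 0.152) and in 4 of 22 that left out 1 of 22 (0.113 to 0.204). Cdc45, Gins2 and Gins3 ranged from 4.81 to 18.5, 5.72 to 16.7 and 1.63 to 5.94 CPM. Of these, Cdc45 was called lower in old asbestos Siglec F-high cells with 24 libraries (-0.82 ± 0.22, edgeR adjusted p = 0.0345) and not with 22 (-0.56 ± 0.20, 0.0995). Opposite-strand exons of Gse1 overlap 67% of the exonic length of Gins2, and the strand setting of the counts is not given in the sources used here.

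The 5 polymerase and primase genes were negative with age in all 3 comparisons. Pola1 (ENSMUSG00000006678, chromosome X, 93304767 to 93632155, minus strand), the catalytic subunit of polymerase alpha, which starts each new strand, stood at 21.4, 16.04, 18.5 and 19.5 CPM in young and 16.8, 19.98, 16.1 and 16.8 CPM in old naive cells. Pola1 after asbestos stood at 24.5, 21.5, 9.48 and 22.02 CPM in young and 20.1, 18.5, 23.7 and 16.6 CPM in old Siglec F-high cells, and at 21.7, 22.2, 20.8 and 18.2 CPM in young and 13.1, 11.9, 13.5 and 12.6 CPM in old Siglec F-low cells. Old Siglec F-low cells were the lowest group, below every other library except the poor young one. The age change there was -0.69 ± 0.10 with 22 libraries (edgeR adjusted p = 1.00e-04) and -0.70 ± 0.19 with 24 (adjusted p = 0.0836). Between sorts of old mice the change was -0.53 ± 0.11 with 22 libraries (edgeR adjusted p = 0.00169) and -0.59 ± 0.20 with 24 (adjusted p = 0.103), and between sorts of young mice -0.13 ± 0.10 with 22 libraries (edgeR adjusted p = 0.477) and 0.09 ± 0.19 with 24 (adjusted p = 0.821).

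Pold1 (ENSMUSG00000038644, chromosome 7, 44532746 to 44548849, minus strand), the catalytic subunit of the lagging-strand polymerase delta, stood at 40.3, 38.1, 40.04 and 32.6 CPM in young and 35.03, 35.02, 32.3 and 33.7 CPM in old naive cells. Pold1 after asbestos stood at 37.5, 43.4, 16.1 and 42.2 CPM in young and 35.1, 27.7, 33.5 and 28.5 CPM in old Siglec F-high cells, and at 33.9, 39.8, 39.1 and 41.05 CPM in young and 26.6, 31.5, 30.6 and 27.9 CPM in old Siglec F-low cells. Old and young did not overlap in Siglec F-low cells, nor in Siglec F-high cells without the poor libraries. The age change was -0.42 ± 0.10 with 22 libraries (edgeR adjusted p = 0.0137) and -0.17 ± 0.19 with 24 (adjusted p = 0.588) in Siglec F-high cells. In Siglec F-low cells it was -0.40 ± 0.09 with 22 libraries (edgeR adjusted p = 0.00777) and -0.40 ± 0.19 with 24 (adjusted p = 0.597).

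Pole (ENSMUSG00000007080, chromosome 5, 110286306 to 110337474, plus strand), the catalytic subunit of polymerase epsilon, stood at 17.2, 12.03, 11.5 and 14.6 CPM in young and 8.22, 8.47, 11.3 and 9.47 CPM in old naive cells. Pole after asbestos stood at 14.3, 13.1, 9.96 and 17.8 CPM in young and 11.7, 12.8, 17.97 and 12.1 CPM in old Siglec F-high cells, and at 14.1, 10.1, 15.1 and 15.4 CPM in young and 8.92, 9.98, 8.902 and 10.6 CPM in old Siglec F-low cells. The naive groups did not overlap, and in Siglec F-low cells 1 young value lay within the old range. The naive age change was -0.56 ± 0.15 with 22 libraries (edgeR adjusted p = 0.0173) and -0.56 ± 0.18 with 24 (adjusted p = 0.156). For Siglec F-low cells it was -0.50 ± 0.15 with 22 libraries (edgeR adjusted p = 0.0385) and -0.51 ± 0.18 with 24 (adjusted p = 0.282). Pola2 and Prim1, the partner subunit of polymerase alpha and the primase, were called lower with age in Siglec F-high cells after asbestos with 22 libraries. Pola2 changed by -0.32 ± 0.09 (edgeR adjusted p = 0.0246) and Prim1 by -0.54 ± 0.15 (adjusted p = 0.03097). With 24 libraries the values were -0.06 ± 0.30 and -0.31 ± 0.40 (adjusted p = 0.928 and 0.647). The age change of Prim1 in Siglec F-low cells was also called in the smaller fit, at -0.44 ± 0.13 with 22 libraries (edgeR adjusted p = 0.0454) and -0.44 ± 0.38 with 24 (adjusted p = 0.9998). The poor young library held 5.03 CPM of Pola2 and 0.967 CPM of Prim1.

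Pcna (ENSMUSG00000027342, chromosome 2, 132249162 to 132253314, minus strand), the sliding clamp, was the most abundant of the 45 per kilobase and stood at 119, 129.97, 107 and 104 CPM in young and 109, 105, 102 and 103 CPM in old naive cells. Pcna after asbestos stood at 144, 121, 166 and 117 CPM in young and 118, 123, 62.1 and 118 CPM in old Siglec F-high cells, and at 169, 137, 123 and 120.3 CPM in young and 105, 85.04, 106 and 107 CPM in old Siglec F-low cells. Only the Siglec F-low groups separated by age, with a change of -0.44 ± 0.10 with 22 libraries (edgeR adjusted p = 0.00711) and -0.45 ± 0.16 with 24 (adjusted p = 0.304). Of 2 Pcna pseudogenes in the table, Pcna-ps1 was at 0 counts in all libraries and Pcna-ps2 at 0.218 to 1.63 CPM. Reads of Pcna and its copies may have been split in counting. Of the clamp loader genes Rfc2, Rfc3, Rfc4 and Rfc5, Rfc3 was called lower with age, in Siglec F-high cells after asbestos with 24 libraries (-0.72 ± 0.20, edgeR adjusted p = 0.0425) and in Siglec F-low cells with 22 (-0.53 ± 0.14, adjusted p = 0.0223). The other 3 were not called in any comparison in either fit.

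The 3 genes of lagging-strand completion were all negative with age in both asbestos comparisons, and Fen1 was positive in naive cells. Dna2 (ENSMUSG00000036875, chromosome 10, 62947026 to 62974185, plus strand), a nuclease and helicase that trims long flaps, stood at 63.1, 58.6, 78.5 and 71.5 CPM in young and 68.7, 66.7, 69.7 and 63.5 CPM in old naive cells. Dna2 after asbestos stood at 74.6, 75.3, 77.9 and 73.3 CPM in young and 57.9, 54.3, 64.5 and 59.6 CPM in old Siglec F-high cells, and at 47.1, 45.001, 51.6 and 55.8 CPM in young and 43.6, 40.9, 44.8 and 43.9 CPM in old Siglec F-low cells. Both Siglec F-low groups lay below the Siglec F-high group of their age without overlap, the poor libraries included. Dna2 was the only 1 of the 45 called between sorts in young mice, where edgeR called 1.58% of all genes lower with 24 libraries and 4.6% with 22. The change was -0.59 ± 0.10 with 24 libraries (edgeR adjusted p = 4.50e-04) and -0.58 ± 0.09 with 22 (adjusted p = 6.58e-05) in young mice. In old mice, where 1.66% and 5.28% of all genes were called lower, it was -0.44 ± 0.10 with 24 libraries (edgeR adjusted p = 0.00939) and -0.41 ± 0.09 with 22 (adjusted p = 0.00259). With age Dna2 was called lower in Siglec F-high cells after asbestos (-0.36 ± 0.10 with 24 libraries (edgeR adjusted p = 0.0375) and -0.37 ± 0.09 with 22 (adjusted p = 0.0148)). This call was lost in 5 of 24 fits that left out 1 of 24 libraries (adjusted p 0.0503 to 0.0906) and 2 of 22 that left out 1 of 22 (0.0631 and 0.0723). In naive cells the age change was -0.02 ± 0.10 with 24 libraries.

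Fen1 (ENSMUSG00000024742, chromosome 19, 10199132 to 10204169, minus strand), the flap endonuclease, stood at 2.88, 2.67, 2.28 and 2.93 CPM in young and 4.78, 4.94, 3.43 and 4.03 CPM in old naive cells. Fen1 after asbestos stood at 4.72, 4.72, 1.74 and 5.302 CPM in young and 3.56, 3.34, 2.45 and 4.37 CPM in old Siglec F-high cells, and at 7.62, 5.76, 5.96 and 4.17 CPM in young and 3.48, 4.89, 3.75 and 4.86 CPM in old Siglec F-low cells. Every old naive value was above every young naive one, against the direction of the other genes of the list called with age. The naive age change of Fen1 was 0.68 ± 0.19 with 22 libraries (edgeR adjusted p = 0.0245) and 0.67 ± 0.26 with 24 (adjusted p = 0.3298). From naive to asbestos the young change was 0.86 ± 0.20 with 22 libraries (edgeR adjusted p = 0.0109) and 0.63 ± 0.26 with 24 (adjusted p = 0.196). In old mice it was -0.19 ± 0.20 with 22 libraries (edgeR adjusted p = 0.671) and -0.25 ± 0.27 with 24 (adjusted p = 0.952), and the test of the difference of these 2 responses gave -1.06 ± 0.28 with 22 libraries (edgeR adjusted p = 0.441) and -0.88 ± 0.38 with 24 (adjusted p = 0.587). Opposite-strand exons of Gm10143 overlap 79% of the exonic length of Fen1, and Gm10143 had at most 0.873 CPM in any library. The part of this overlap in the counts of Fen1 was not tested.

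Lig1 (ENSMUSG00000056394, chromosome 7, 13277283 to 13311433, plus strand), the ligase that seals Okazaki fragments, stood at 37.3, 29.3, 27.2 and 31.001 CPM in young and 26.1, 29.7, 26.9 and 24.4 CPM in old naive cells. Lig1 after asbestos stood at 44.2, 32.95, 76.3 and 39.5 CPM in young and 33.4, 32.5, 19.6 and 34.1 CPM in old Siglec F-high cells, and at 45.3, 40.1, 37.1 and 38.8 CPM in young and 21.9, 29.02, 29.3 and 28.2 CPM in old Siglec F-low cells. The poor young library was the highest of all, and the poor old one the lowest. Siglec F-low groups did not overlap by age, with a change of -0.57 ± 0.11 with 22 libraries (edgeR adjusted p = 0.00177) and -0.57 ± 0.20 with 24 (adjusted p = 0.2396).

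All 5 nucleotide supply genes were called lower with age in Siglec F-low cells with 22 libraries, where 3.41% of all genes were. Rrm2 (ENSMUSG00000020649, chromosome 12, 24708241 to 24714146, plus strand), the small subunit of ribonucleotide reductase that rises in S phase, was lower with age in each pair. It stood at 37.2, 36.1, 32.7 and 35.1 CPM in young and 23.7, 20.04, 18.3 and 20.2 CPM in old naive cells. Rrm2 after asbestos stood at 61.2, 49.5, 26.5 and 47.9 CPM in young and 32.1, 31.3, 25.3 and 28.5 CPM in old Siglec F-high cells, and at 73.7, 55.7, 57.3 and 50.3 CPM in young and 29.4, 28.8, 37.1 and 34.6 CPM in old Siglec F-low cells. Without the poor libraries no old value reached a young one in any of the 3 pairs. Mean levels were 35.3 ± 1.88 CPM in young and 20.6 ± 2.26 CPM in old naive cells (SD, n = 4). The naive age change was -0.78 ± 0.18 with 24 libraries (edgeR adjusted p = 0.0163) and -0.77 ± 0.11 with 22 (adjusted p = 8.41e-05). For Siglec F-high cells after asbestos it was -0.64 ± 0.18 with 24 libraries (edgeR adjusted p = 0.0423) and -0.77 ± 0.13 with 22 (adjusted p = 5.15e-04), and in Siglec F-low cells -0.87 ± 0.18 with 24 libraries (edgeR adjusted p = 0.0107) and -0.86 ± 0.11 with 22 (adjusted p = 3.06e-05). With 24 libraries these calls were close to the threshold. They were lost in 5, 19 and 3 of the 24 fits that left out 1 library, with adjusted p of 0.0505 to 0.0725, 0.0505 to 0.104 and 0.0512 to 0.0779, and in none of the 22 fits that left out 1 of 22. Rrm2 also was higher after asbestos with 22 libraries, by 0.58 ± 0.12 in young (edgeR adjusted p = 0.00478) and 0.58 ± 0.12 in old Siglec F-high cells (adjusted p = 0.00795). With 24 libraries these were 0.39 ± 0.17 and 0.53 ± 0.18 (adjusted p = 0.217 and 0.257).

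Rrm1 (ENSMUSG00000030978, chromosome 7, 102441695 to 102469771, plus strand), the large subunit, stood at 71.5, 61.9, 54.2 and 53.98 CPM in young and 47.9, 51.8, 48.4 and 48.2 CPM in old naive cells. Rrm1 after asbestos stood at 86.01, 67.2, 44.9 and 65.99 CPM in young and 52.4, 60.6, 50.6 and 61.4 CPM in old Siglec F-high cells, and at 94.7, 84.5, 76.5 and 76.1 CPM in young and 47.3, 51.3, 66.8 and 59.7 CPM in old Siglec F-low cells. Young and old naive libraries did not overlap, and neither did the Siglec F-low ones. The Siglec F-low age change was -0.55 ± 0.11 with 22 libraries (edgeR adjusted p = 0.00274) and -0.56 ± 0.15 with 24 (adjusted p = 0.0801), and the naive change, not called, was -0.29 ± 0.11 with 22 libraries (edgeR adjusted p = 0.115) and -0.30 ± 0.15 with 24 (adjusted p = 0.642).

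Tyms (ENSMUSG00000025747, chromosome 5, 30058202 to 30073617, minus strand), thymidylate synthase, stood at 11.5, 11.1, 9.38 and 9.81 CPM in young and 8.16, 9.54, 8.07 and 11.1 CPM in old naive cells. Tyms after asbestos stood at 16.4, 13.1, 11.5 and 13.5 CPM in young and 8.74, 10.9, 10.6 and 10.1 CPM in old Siglec F-high cells, and at 18.1, 14.4, 12.4 and 14.04 CPM in young and 9.097, 9.91, 11.98 and 11.4 CPM in old Siglec F-low cells. Both asbestos pairs separated by age, with changes of -0.52 ± 0.15 with 22 libraries (edgeR adjusted p = 0.0422) and -0.45 ± 0.16 with 24 (adjusted p = 0.0848) in Siglec F-high cells. In Siglec F-low cells the change was -0.47 ± 0.13 with 22 libraries (edgeR adjusted p = 0.0332) and -0.47 ± 0.15 with 24 (adjusted p = 0.167). Tk1 (ENSMUSG00000025574, chromosome 11, 117815526 to 117826092, minus strand), the thymidine kinase of the salvage route, stood at 30.6, 24.3, 23.6 and 25.04 CPM in young and 24.01, 19.4, 20.4 and 19.7 CPM in old naive cells. Tk1 after asbestos stood at 36.8, 31.6, 10.3 and 29.003 CPM in young and 29.2, 30.4, 33.5 and 28.6 CPM in old Siglec F-high cells, and at 34.1, 30.4, 29.4 and 31.9 CPM in young and 18.2, 24.5, 22.9 and 19.5 CPM in old Siglec F-low cells. Outside the poor libraries Siglec F-high cells after asbestos held 28.6 to 30.4 CPM in old and 29.003 to 36.8 CPM in young mice, and old Siglec F-low cells 18.2 to 24.5 CPM. The age change of Tk1 in Siglec F-low cells was -0.56 ± 0.10 with 22 libraries (edgeR adjusted p = 0.00136) and -0.57 ± 0.22 with 24 (adjusted p = 0.387). Between sorts in old mice it was -0.48 ± 0.11 with 22 libraries (edgeR adjusted p = 0.00595) and -0.50 ± 0.23 with 24 (adjusted p = 0.282), and from naive to asbestos in old Siglec F-high cells 0.50 ± 0.11 with 22 libraries (edgeR adjusted p = 0.0114) and 0.53 ± 0.23 with 24 (adjusted p = 0.484). Dut, which keeps uracil out of DNA, was called lower with age in Siglec F-low cells with 22 libraries (-0.50 ± 0.14, edgeR adjusted p = 0.0332) and not with 24 (-0.51 ± 0.23, 0.548).

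**Figure D5:**
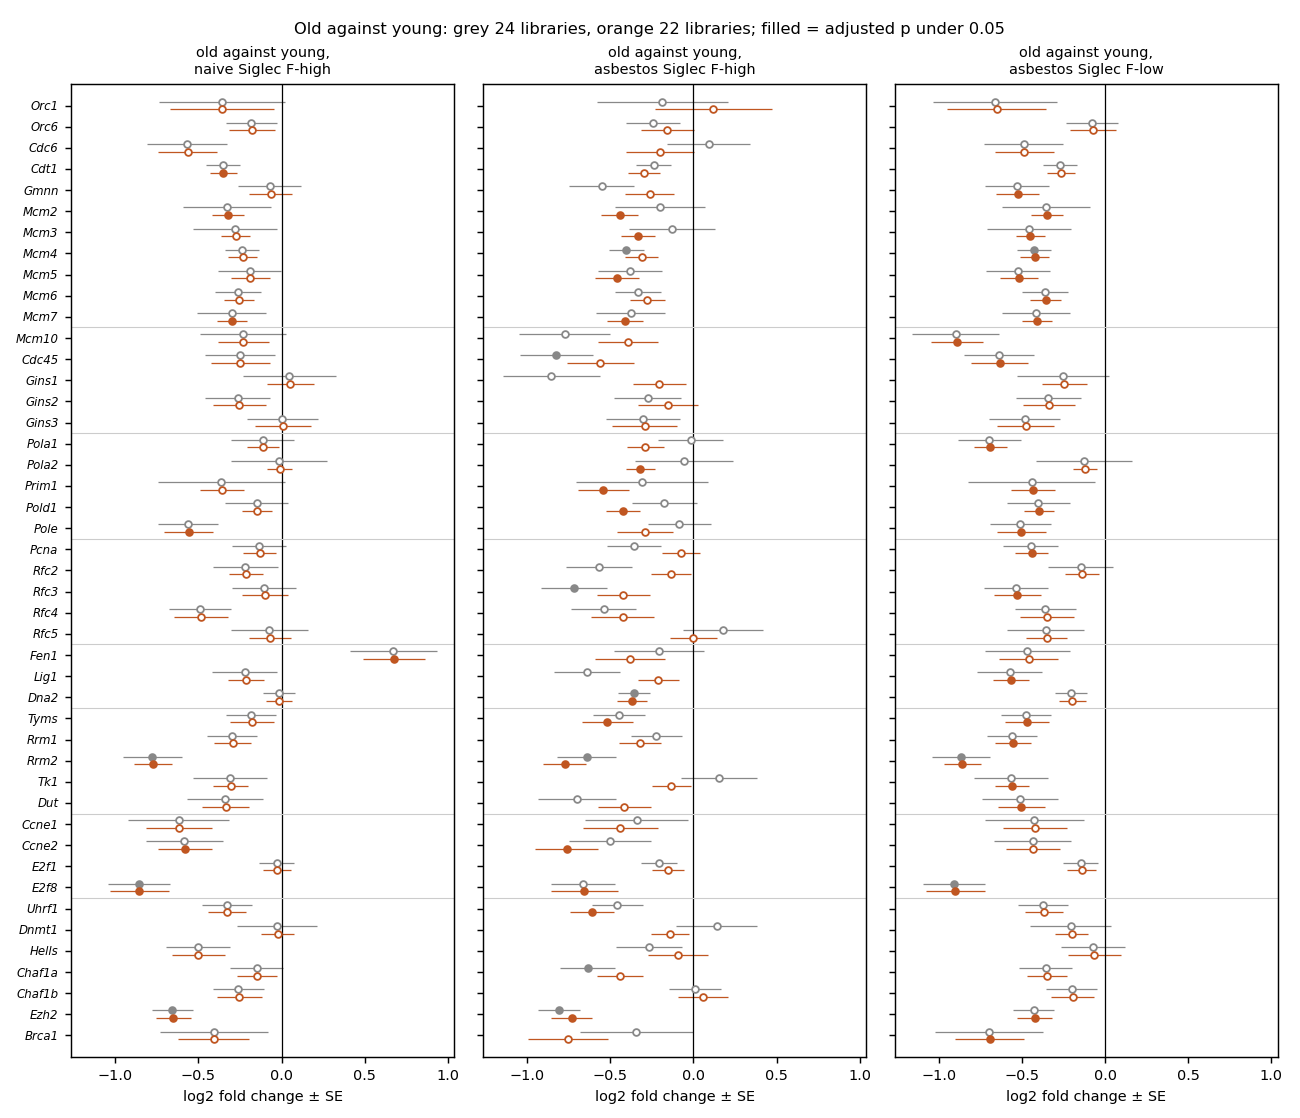
Log2 change of each of the 45 genes in old against young with its standard error, in naive Siglec F-high, asbestos Siglec F-high and asbestos Siglec F-low cells, with 24 libraries (grey) and 22 (orange), ordered by role, with called genes filled. Rrm2, E2f8, Ezh2, Mcm2 and Mcm7 are filled in orange in all 3 panels, and Fen1 is the only gene filled above 0.

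The 4 G1/S regulators were negative in all 3 age comparisons. E2f8 (ENSMUSG00000046179, chromosome 7, 48866429 to 48881596, minus strand), an atypical E2F that represses E2F targets, stood at 9.01, 7.77, 8.02 and 8.89 CPM in young and 4.72, 3.42, 5.75 and 4.68 CPM in old naive cells. E2f8 after asbestos stood at 12.97, 8.85, 11.02 and 9.98 CPM in young and 7.17, 6.503, 7.35 and 6.33 CPM in old Siglec F-high cells, and at 12.6, 8.44, 11.1 and 8.45 CPM in young and 4.23, 4.96, 7.296 and 5.17 CPM in old Siglec F-low cells. All old values were below all young values within each pair. Mean levels in naive cells were 8.42 ± 0.621 CPM in young and 4.64 ± 0.951 CPM in old (SD, n = 4). The age change was -0.86 ± 0.19 with 24 libraries (edgeR adjusted p = 0.0121) and -0.85 ± 0.18 with 22 (adjusted p = 0.00314) in naive cells. In Siglec F-high cells after asbestos it was -0.66 ± 0.19 with 24 libraries (edgeR adjusted p = 0.0507) and -0.66 ± 0.20 with 22 (adjusted p = 0.0476), and in Siglec F-low cells -0.91 ± 0.19 with 24 libraries (edgeR adjusted p = 0.0127) and -0.90 ± 0.18 with 22 (adjusted p = 0.00229). With 24 libraries the naive call was lost without old naive replicate 2 (adjusted p 0.0635) and the Siglec F-low call in 5 of 24 fits that left out 1 library (0.0511 to 0.0812). The Siglec F-high call after asbestos, made with 22 libraries, was lost in 15 of the 22 fits that left out 1 of them (adjusted p 0.0503 to 0.213).

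E2f1 (ENSMUSG00000027490, chromosome 2, 154559407 to 154569892, minus strand), the classical activator of these genes, stood at 53.9, 49.3, 54.1 and 53.2 CPM in young and 46.7, 56.9, 50.7 and 51.8 CPM in old naive cells. E2f1 after asbestos stood at 51.6, 52.5, 53.3 and 61.4 CPM in young and 46.8, 52.8, 40.02 and 47.96 CPM in old Siglec F-high cells, and at 47.2, 50.6, 51.002 and 49.4 CPM in young and 43.9, 54.2, 41.8 and 39.5 CPM in old Siglec F-low cells. The young naive values lay within the old range, and the age changes of E2f1 were -0.03 ± 0.08, -0.15 ± 0.10 and -0.14 ± 0.09 in naive, asbestos Siglec F-high and asbestos Siglec F-low cells with 22 libraries (edgeR adjusted p = 0.909, 0.421 and 0.381). Ccne1 (ENSMUSG00000002068, chromosome 7, 38097984 to 38107534, minus strand) and Ccne2 (ENSMUSG00000028212, chromosome 4, 11191351 to 11204779, plus strand) encode the E cyclins that start S phase with Cdk2. Ccne1 stood at 7.93, 8.27, 5.64 and 7.91 CPM in young and 5.54, 5.44, 3.04 and 5.33 CPM in old naive cells. Ccne1 after asbestos stood at 9.75, 7.01, 3.19 and 10.9 CPM in young and 5.73, 5.92, 1.63 and 8.66 CPM in old Siglec F-high cells, and at 10.8, 8.73, 7.91 and 9.65 CPM in young and 6.08, 5.9996, 8.77 and 6.75 CPM in old Siglec F-low cells. Ccne1 was not called in any comparison (naive age change -0.61 ± 0.20 with 22 libraries (edgeR adjusted p = 0.0589) and -0.62 ± 0.30 with 24 (adjusted p = 0.592)). Ccne2 stood at 7.15, 9.17, 8.16 and 6.18 CPM in young and 4.49, 3.65, 6.24 and 6.04 CPM in old naive cells. Ccne2 after asbestos stood at 8.47, 7.95, 8.03 and 8.36 CPM in young and 4.82, 4.86, 13.1 and 4.804 CPM in old Siglec F-high cells, and at 8.6999, 8.67, 7.73 and 7.65 CPM in young and 5.16, 6.195, 7.697 and 5.17 CPM in old Siglec F-low cells. The poor old library held the highest value of Ccne2, while the other old Siglec F-high values after asbestos lay at 4.804 to 4.86 CPM. Its age change was -0.58 ± 0.16 with 22 libraries (edgeR adjusted p = 0.02696) and -0.59 ± 0.23 with 24 (adjusted p = 0.341) in naive cells. After asbestos it was -0.76 ± 0.19 with 22 libraries (edgeR adjusted p = 0.0145) and -0.50 ± 0.25 with 24 (adjusted p = 0.199) in Siglec F-high cells.

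Among the 7 chromatin and repair genes, Ezh2 (ENSMUSG00000029687, chromosome 6, 47530139 to 47595341, minus strand), the methyltransferase of Polycomb repressive complex 2, was the only 1 called in naive cells. It stood at 28.2, 25.7, 24.2 and 25.8 CPM in young and 18.6, 18.02, 15.4 and 13.8 CPM in old naive cells. Ezh2 after asbestos stood at 27.6, 22.7, 29.5 and 23.8 CPM in young and 12.8, 15.5, 14.7 and 16.01 CPM in old Siglec F-high cells, and at 24.3, 20.2, 22.3 and 21.5 CPM in young and 16.4, 16.8, 18.3 and 14.1 CPM in old Siglec F-low cells. Old values of 12.8 to 18.6 CPM lay below young values of 20.2 to 29.5 CPM, without overlap between any old and any young library. Mean levels were 25.96 ± 1.66 CPM in young and 16.5 ± 2.27 CPM in old naive cells (SD, n = 4). The age change was -0.66 ± 0.12 with 24 libraries (edgeR adjusted p = 0.00281) and -0.65 ± 0.10 with 22 (adjusted p = 2.14e-04) in naive cells. In Siglec F-high cells after asbestos it was -0.81 ± 0.13 with 24 libraries (edgeR adjusted p = 4.74e-04) and -0.73 ± 0.12 with 22 (adjusted p = 5.45e-04), and in Siglec F-low cells -0.43 ± 0.12 with 24 libraries (edgeR adjusted p = 0.105) and -0.42 ± 0.11 with 22 (adjusted p = 0.0151). The calls of Ezh2 in naive and in asbestos Siglec F-high cells were kept in each fit that left out 1 of 24 or 1 of 22 libraries. Unlike Rrm2, Ezh2 did not pass the test from naive to asbestos, at -0.08 ± 0.11 in young and -0.16 ± 0.12 in old cells with 22 libraries (edgeR adjusted p = 0.798 and 0.534), but the difference between the genes was not tested.

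Uhrf1 (ENSMUSG00000001228, chromosome 17, 56303321 to 56323486, plus strand), which reads half-methylated DNA behind the fork, stood at 26.9, 18.97, 24.8 and 22.8 CPM in young and 17.7, 18.6, 17.4 and 20.7 CPM in old naive cells. Uhrf1 after asbestos stood at 34.5, 26.7, 28.2 and 29.9 CPM in young and 19.3, 19.04, 31.9 and 20.9 CPM in old Siglec F-high cells, and at 27.99, 21.2, 27.2 and 29.6 CPM in young and 17.7, 21.8, 22.8 and 19.6 CPM in old Siglec F-low cells. Without the poor libraries the asbestos Siglec F-high groups did not overlap by age. The change there was -0.61 ± 0.13 with 22 libraries (edgeR adjusted p = 0.00542) and -0.46 ± 0.15 with 24 (adjusted p = 0.0765). Dnmt1 (ENSMUSG00000004099, chromosome 9, 20907209 to 20959888, minus strand), the maintenance DNA methyltransferase that Uhrf1 recruits, stood at 137, 95.2, 115 and 109 CPM in young and 105, 97.3, 119 and 126 CPM in old naive cells. Dnmt1 after asbestos stood at 147, 130.1, 38.5 and 147 CPM in young and 131, 118, 129 and 133 CPM in old Siglec F-high cells, and at 147, 129, 158 and 152 CPM in young and 122, 121, 124 and 142 CPM in old Siglec F-low cells. Dnmt1 was not called in any comparison, and its age changes with 22 libraries were -0.02 ± 0.10, -0.14 ± 0.11 and -0.20 ± 0.10. Hells (ENSMUSG00000025001, chromosome 19, 38930915 to 38971051, plus strand), a remodeller needed for DNA methylation, stood at 10.7, 8.97, 8.02 and 8.35 CPM in young and 7.401, 4.94, 6.796 and 6.22 CPM in old naive cells. Hells after asbestos stood at 10.7, 9.84, 10.8 and 6.2995 CPM in young and 7.05, 9.73, 4.08 and 8.297 CPM in old Siglec F-high cells, and at 9.64, 9.81, 7.56 and 8.39 CPM in young and 7.82, 9.39, 7.96 and 8.51 CPM in old Siglec F-low cells. Old naive values of Hells were all below the young ones, without a call (-0.50 ± 0.16 with 22 libraries (edgeR adjusted p = 0.0554) and -0.51 ± 0.19 with 24 (adjusted p = 0.302)).

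Chaf1a (ENSMUSG00000002835, chromosome 17, 56040439 to 56072289, plus strand) and Chaf1b (ENSMUSG00000022945, chromosome 16, 93883901 to 93906115, plus strand) encode subunits of CAF-1, which lays histones on new DNA. Chaf1a stood at 20.3, 12.5, 15.1 and 12.8 CPM in young and 12.8, 12.96, 14.1 and 14.9 CPM in old naive cells. Chaf1a after asbestos stood at 19.7, 17.7, 30.2 and 19.6 CPM in young and 13.6, 15.1, 14.7 and 12.9 CPM in old Siglec F-high cells, and at 22.6, 17.97, 18.5 and 19.1 CPM in young and 14.5, 15.8, 14.8 and 15.9 CPM in old Siglec F-low cells. Old and young values did not overlap in either asbestos pair. The Siglec F-high age change of Chaf1a was -0.63 ± 0.17 with 24 libraries (edgeR adjusted p = 0.0305) and -0.44 ± 0.14 with 22 (adjusted p = 0.0536), and 3 of 24 fits that left out 1 of 24 libraries lost it (adjusted p 0.0540 to 0.0964). Opposite-strand exons of Ubxn6, at 55.4 to 209 CPM, overlap 52% of the exonic length of Chaf1a. Chaf1b stood at 15.6, 15.7, 11.6 and 12.4 CPM in young and 12.3, 10.6, 12.4 and 10.7 CPM in old naive cells. Chaf1b after asbestos stood at 18.9, 13.6, 14.7 and 17.2 CPM in young and 17.1, 17.2, 11.4 and 16.96 CPM in old Siglec F-high cells, and at 25.96, 19.9, 18.2 and 18.6 CPM in young and 14.9, 19.5, 20.01 and 17.5 CPM in old Siglec F-low cells. Old Siglec F-high libraries after asbestos held 16.96 to 17.2 CPM of Chaf1b outside the poor one, above all old naive values. The change from naive to asbestos in old cells was 0.57 ± 0.14 with 22 libraries (edgeR adjusted p = 0.0232) and 0.49 ± 0.16 with 24 (adjusted p = 0.2102). Brca1 (ENSMUSG00000017146, chromosome 11, 101488764 to 101551955, minus strand), a repair factor that protects stalled forks, stood at 13.2, 5.47, 9.62 and 9.48 CPM in young and 7.401, 5.84, 7.901 and 7.3998 CPM in old naive cells. Brca1 after asbestos stood at 19.6, 14.6, 3.77 and 13.1 CPM in young and 8.44, 8.38, 15.5 and 11.1 CPM in old Siglec F-high cells, and at 15.9, 10.95, 13.9 and 16.7 CPM in young and 6.14, 8.54, 10.98 and 9.73 CPM in old Siglec F-low cells. Its age change in Siglec F-low cells was -0.69 ± 0.21 with 22 libraries (edgeR adjusted p = 0.0444) and -0.70 ± 0.33 with 24 (adjusted p = 0.581), with 1 young value inside the old range. This call was lost in 13 of the 22 fits that left out 1 of 22 libraries (adjusted p 0.0508 to 0.154).

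After asbestos most of the 45 genes had somewhat higher values than in naive cells. Whether the list moved more than all genes did was not tested. The medians and signs below are given without those of all genes, whose medians the plot of log2 fold changes shows as dashed lines. In young Siglec F-high cells the median change from naive to asbestos was 0.16 with 24 libraries and 0.23 with 22, and 35 and 39 of the 45 genes were positive. With 24 libraries edgeR called 1 gene higher, Gins1, where 1.43% of all genes tested were called higher, and with 22 it called 3, Gins1, Fen1 and Rrm2, where the share was 3.48%. In old Siglec F-high cells the median was 0.12 and 0.11, and 30 and 32 of 45 genes were positive. None of the 45 was called in edgeR with 24 libraries, where 0.713% of all genes were called higher, or by DESeq2. In edgeR 5 of them had an unadjusted p under 0.05. Shares of all genes at that unadjusted threshold are not given here. With 22 libraries Rrm2, Tk1 and Chaf1b were called higher, where 3.16% of all genes were. None of the 45 was called lower after asbestos in either age, where 0.475% and 0.0668% of all genes were called lower in young and old cells with 24 libraries, and 1.58% and 0.969% with 22. The number called in young cells was 4 without young asbestos replicate 2 and 2 without replicate 3 or 4. From 22 libraries it was 13 when young naive replicate 1 was left out and 1 when young asbestos replicate 1 was. In old cells the count of 0 with 24 libraries was 2 when the poor young library was left out. Fitted on its 8 libraries alone, the young comparison called none of the 45, with Gins1 at an adjusted p of 0.707, and 4 of them had an unadjusted p under 0.05 in edgeR.

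Between the sorts the medians of the list lay near 0. In young mice the median change of Siglec F-low against Siglec F-high cells was 0.04 with 24 libraries and 0.00 with 22, and in old mice -0.01 and -0.07. Dna2 was called lower in both ages, and with 22 libraries Pola1 and Tk1 were called lower in old mice. Of all genes tested, 1.58% and 1.66% were called lower in young and old mice with 24 libraries, and 4.6% and 5.28% with 22. The young count of 1 was 2 when replicate 1 of the young Siglec F-high cells was left out, and the old count of 1 was 3 when the poor young library was. With no filter on low counts the old call of Dna2 was lost (adjusted p = 0.103). None of the 45 was called higher in Siglec F-low cells, where 3.41% and 2.64% of all genes were called higher in young and old mice with 24 libraries, and 7.42% and 6.3% with 22. The sorts themselves differed in many other genes, since edgeR called 4.99% of all genes in young and 4.3% in old mice with 24 libraries.

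The test of whether the asbestos response or the sort difference itself depended on age called none of the 45 genes in edgeR with 24 or 22 libraries, nor in DESeq2 or limma. Of all genes, 0% were called in either test with 24 libraries and 0.0147% with 22. An unadjusted p under 0.05 was found for 5 and 3 genes in the asbestos response with 24 and 22 libraries, and for 3 and 5 in the sort difference. The smallest was that of Fen1 in the asbestos response with 22 libraries (0.00101 unadjusted). For the sort difference it was that of Tk1 with 22 libraries (-0.43 ± 0.16, unadjusted p = 0.012002). The counts at an unadjusted p under 0.05 are given without the share of all genes at that threshold.

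Other genes of the cell cycle were followed in lists that hold none of the 45. Of 24 mitosis genes, all 24 were negative with age in each of the 3 comparisons. Called lower with 24 libraries were 4, 11 and 8 of them in naive, asbestos Siglec F-high and asbestos Siglec F-low cells, and with 22 libraries 14, 17 and 20. Of all genes tested, 0.349%, 1.87% and 0.423% were called lower with 24 libraries and 2.91%, 2.47% and 3.41% with 22. Kif11, the spindle motor Eg5, changed with age by -0.51 ± 0.12 with 24 libraries (edgeR adjusted p = 0.0201) and -0.51 ± 0.10 with 22 (adjusted p = 0.00236) in naive cells. Ccna2, cyclin A2, changed by -0.86 ± 0.14 with 24 libraries (edgeR adjusted p = 0.00203) and -0.85 ± 0.12 with 22 (adjusted p = 5.73e-05) in Siglec F-low cells. In young cells 3 mitosis genes were called higher after asbestos with 24 libraries (1.43% of all genes) and 9 with 22 (3.48%). Among them was Plk1, a mitotic kinase (0.73 ± 0.17 with 24 libraries (edgeR adjusted p = 0.02798) and 0.67 ± 0.17 with 22 (adjusted p = 0.01995)). Of 42 further replication genes, 31, 33 and 39 were negative with age, with medians of -0.11, -0.22 and -0.30, and 0, 2 and 2 were called lower with 24 libraries. Mcm8 and Dbf4, a helicase of recombination and the activator of the Cdc7 kinase, were called in Siglec F-low cells in both fits. Mcm8 changed by -1.0004 ± 0.22 with 24 libraries (edgeR adjusted p = 0.0185) and -0.99 ± 0.20 with 22 (adjusted p = 0.00274), and Dbf4 by -0.55 ± 0.12 with 24 libraries (edgeR adjusted p = 0.0185) and -0.55 ± 0.11 with 22 (adjusted p = 0.00214). Of 10 genes of nucleotide salvage and dNTP control, Dck, deoxycytidine kinase, was called lower with age in Siglec F-high cells after asbestos in both fits (-0.62 ± 0.15 with 24 libraries (edgeR adjusted p = 0.0165) and -0.36 ± 0.10 with 22 (adjusted p = 0.0326)).

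The G1 cyclins, kinases and inhibitors were mixed. Cdkn2a, the locus of p16 and p19, was the only 1 of 15 called higher in old naive cells with 24 libraries. Of all genes tested, 1.68% were called higher there. Cdkn2a changed by 2.77 ± 0.56 with 24 libraries (edgeR adjusted p = 0.00583) and 2.77 ± 0.28 with 22 (adjusted p = 3.05e-07). Cdkn2c, another inhibitor of Cdk4 and Cdk6, was called lower in old asbestos Siglec F-high cells (-0.75 ± 0.17 with 24 libraries (edgeR adjusted p = 0.0146) and -0.84 ± 0.17 with 22 (adjusted p = 0.00311)). Of 13 E2F and pocket protein genes none was called with age with 24 libraries, and 1, 2 and 2 were called lower with 22. Of 11 Polycomb and DNA methylation partners 0, 1 and 0 were called lower with 24 libraries and 1, 1 and 2 with 22. The shares of all genes called lower were 0.349%, 1.87% and 0.423% with 24 libraries and 2.91%, 2.47% and 3.41% with 22.

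Markers of other cells that a lung sort could hold were summed as well, without the poor libraries. The sum of 6 B cell markers was 58.1 to 93.9 CPM in young and 139 to 285 CPM in old naive libraries, carried by Ighm, whose mean was 35.2 and 168 CPM. The other B cell markers were each under 12 CPM on average. After asbestos the B cell sum was 22.5 to 44.0 CPM in young and 31.7 to 99.3 CPM in old Siglec F-high cells, and 26.1 to 54.3 and 57.3 to 147 CPM in Siglec F-low cells. The sum of 6 T and NK cell markers was 6.81 to 26.5 CPM over all groups, that of the epithelial markers 21.5 to 200.5 CPM, that of the dendritic cell markers 13.1 to 26.1 CPM, that of 5 fibroblast markers at most 11.7 CPM and that of 4 endothelial markers at most 10.7 CPM. In naive cells the epithelial sum was carried by Epcam, with means of 124 and 172 CPM in young and old. Sftpc averaged 6.36 and 6.12 CPM there, and Sftpb, Scgb1a1, Krt8 and Krt18 less. Neutrophil markers summed to 21.8 to 84.1 CPM, with Ly6g at 0 in 22 of 24 libraries. Resident alveolar macrophage markers summed to 14027 to 19251 CPM in young and 15399.8 to 17794 CPM in old naive cells. After asbestos they summed to 22287 to 25992 and 34021 to 38850.4 CPM in young and old Siglec F-high cells and to 34207 to 45900 and 50302 to 64379 CPM in Siglec F-low cells, without overlap by age. Most of this sum was Chil3, a chitinase-like protein. Means of single markers are over all 4 libraries of a group, the poor ones included. Chil3 averaged 20284 and 27406 CPM in young and old Siglec F-high cells and 36739 and 53837 CPM in Siglec F-low cells. With age, Marco, Pparg, Car4, Fabp1 and Fabp4 had lower means in both asbestos sorts (Car4 and Fabp1 only slightly in Siglec F-low cells). Ear2 and Krt79 had higher ones, and Siglecf and Cidec differed by sort. Fabp1, Ear2, Krt79 and Cidec had lower means in Siglec F-low than Siglec F-high cells at both ages, and Fabp4 higher ones. Marco, Pparg and Car4 differed in direction between ages. Siglecf, which defined the sort, averaged 420 to 534 CPM in the Siglec F-high groups and 173 to 265 CPM in the Siglec F-low ones. Of 9 monocyte-derived macrophage markers 4 and 5 were called higher in Siglec F-low than in Siglec F-high cells of young and old mice with 24 libraries. Of all genes tested 3.41% and 2.64% were. The part of these markers, or of the cells they mark, in the age difference of the 45 genes was not tested.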

How the data were processed

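RNA from sorted macrophages was sequenced after poly(A) selection, per the labels' protocols. The deposited table held whole-number counts per gene for 24 libraries, made by the authors. The submitters' processing notes name the mouse build mm10, bcl2fastq 2.19.1, FastQC, Trimmomatic 0.36, STAR 2.6.0 and HTSeq 0.11.2, without their roles or order. The annotation and strand setting of the counts are not given in the sources used here, so reads of overlapping opposite-strand genes cannot be told apart. All 24 columns were matched to samples by their names. Of 43430 gene rows, 42462 had a symbol and a position in GENCODE M21.

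Genes were filtered with edgeR's filterByExpr (minimum count 10, minimum total count 15), which left 13467 genes with 24 libraries and 13629 with 22. Counts were scaled by TMM and fitted with edgeR 4.0.16 (R 4.3.3), with 1 term per group over all 6 groups, by glmQLFit and glmQLFTest. P-values were adjusted by Benjamini-Hochberg over all genes tested, also in DESeq2 1.42.0 and limma 3.58.1. The 22-library fit left out replicate 3 of both asbestos Siglec F-high groups. A standard error is the absolute log2 fold change divided by the square root of F. CPM are counts divided by the TMM-adjusted library total. The procedure was tested on simulated data. Other alternatives were DESeq2, RLE scaling, no filter, voom with quality weights, the compared groups alone, a replicate block and each library left out, and those that left out 1 of 22 libraries were chosen after seeing the data.

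The 45 genes and all other lists were chosen with earlier results of these data known. Values per library are given for 24 genes fixed by role and, for each comparison, up to 4 others of the 45 with the smallest p among those called. Remaining genes of the 45 that are named with a value were chosen after their values were seen. Genes of other lists are named where called in both fits, at most 4 per list and comparison. The 36 pairs of libraries within a group differed beyond sampling noise, with a chi-square per degree of freedom of 3.54 or more, so none was counted as a duplicate. Groups share replicate numbers that the labels do not tie to animals. With 24 libraries, no pair of groups had every same-numbered correlation of deviations over 0.1. With 22, the sorts of old asbestos mice did (0.150 to 0.205 over 3 numbers), and the block left the count for that comparison at 3.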

Additional observations from a re-analysis of the deposited data

Results flagged for a closer look

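Of 198 groups of 4 values (33 genes with values given per library, in 6 groups), 23 held a highest or lowest library that stood apart from the other 3 by Dixon's criterion, where chance alone gives about 1 in 20. The poor library of young asbestos Siglec F-high cells, replicate 3, stood apart low for Mcm5 (23.7 CPM), Fen1 (1.74 CPM), Dnmt1 (38.5 CPM) and Mcm7 (29.7 CPM), and high for Chaf1a (30.2 CPM), Mcm10 (25.2 CPM) and Gins1 (24.7 CPM). The poor library of old asbestos Siglec F-high cells, also replicate 3, stood apart low for Mcm6 (36.8 CPM), Pcna (62.1 CPM), Lig1 (19.6 CPM), Mcm3 (44.1 CPM) and Chaf1b (11.4 CPM), and high for Uhrf1 (31.9 CPM) and Ccne2 (13.1 CPM). Each of these libraries thus held 7 of the 23 values. Among old asbestos Siglec F-low libraries, replicate 1 was low for Mcm5 (23.1 CPM) and Lig1 (21.9 CPM), replicate 2 was low for Pcna (85.0 CPM), replicate 3 was high for Mcm2 (40.2 CPM) and replicate 4 was high for Dnmt1 (142 CPM). Among old naive libraries, replicate 2 was high for Rrm1 (51.8 CPM), replicate 3 was low for Ccne1 (3.04 CPM) and replicate 4 was high for Gins1 (7.04 CPM). Young naive replicate 3 was low for Ccne1 (5.64 CPM).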

How the results depend on the processing

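Counts of the 45 genes called moved with the libraries and the fit. The count in naive cells by age was 3, and 9 with 22 libraries, 12 with voom and quality weights and 14 with the replicate block and 22 libraries. For age in asbestos Siglec F-high cells the count of 7 became 14 with 22 libraries, 14 in DESeq2, 1 with no filter, 21 with voom, 0 with only the groups compared (11 at an unadjusted p under 0.05) and 18 with the block and 22 libraries. For age in Siglec F-low cells the count of 3 became 24 with 22 libraries, 5 in DESeq2, 28 with voom, 21 with only the groups compared and 25 with the block and 22 libraries, and it was 2 with RLE scaling, with no filter and with the block. From naive to asbestos the young count of 1 became 3, 4 and 19 with 22 libraries, DESeq2 and voom, 0 with only the groups compared (4 at an unadjusted p under 0.05), 0 with the block (13) and 5 with the block and 22 libraries. The old count of 0 became 3 with 22 libraries, 3 with voom and 4 with the block and 22 libraries. Between sorts of old mice the count of 1 became 3 with 22 libraries, voom, only the groups compared or the block and 22 libraries, and 0 with no filter (4 at an unadjusted p under 0.05). The count between sorts of young mice was 1 and both tests of a dependence on age called 0 in each of these settings. Leaving out 1 of 24 libraries gave 1 to 6, 1 to 14 and 0 to 15 genes for age in naive, asbestos Siglec F-high and Siglec F-low cells, 0 to 4 and 0 to 2 for asbestos in young and old, and 1 to 2 and 1 to 3 for sorts in young and old. Leaving out 1 of 22 gave 5 to 11, 5 to 16, 13 to 26, 1 to 13, 2 to 3, 1 to 1 and 3 to 3. The cause of these moves was not tested. The share of all genes called is given only for the main edgeR fits, to 24 and to 22 libraries. Counts in the other settings, and counts at an unadjusted p under 0.05 in any fit, are thus not set against all genes. Among changes of named genes called with 24 or 22 libraries, none changed sign in a setting that kept all libraries of the fit. Changes called in neither fit were not followed in this way. The number of the 45 negative after asbestos in young cells was 10 in edgeR with 24 libraries, 13 with the block and 3 with voom. Mcm3 by age in asbestos Siglec F-high cells, at -0.13 and not called, was -0.41 to 0.048 when 1 library was left out, the highest of these without young replicate 1. With the replicate block Mcm4 in Siglec F-low cells (adjusted p = 0.0599) and Gins1 after asbestos (0.0806) were no longer called, nor was Gins1 with the block and 22 libraries (0.0556). The low depth of the poor old library, 3894699 counts, limits what its single values show.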
